A study of Mus musculus with 6 samples.

Results

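The genes described here are the cornified envelope genes of the epidermal differentiation complex, a cluster of genes for the outermost layers of the epidermis. They were chosen by name and position, as protein-coding genes on mouse chromosome 3 whose symbols start with Lce or Sprr, together with Lor, Ivl, Flg, Flg2, Hrnr, Rptn, Tchh, Tchhl1, Crnn and Crct1. The S100 genes of the same cluster were not taken. The rule gave 46 of the 55487 genes in the table, lying between 92080271 and 93471980 on chromosome 3 (GRCm38), a stretch of 1.39 megabases. One of them, Sprr2j-ps, is annotated as protein-coding in GENCODE and as a transcribed pseudogene in RefSeq. The family rows Sprr2c-ps and Sprr2g are annotated as pseudogenes and were left out.

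Whole dorsal skin of mice under DPCP (diphencyprone, a compound applied to skin to cause a contact allergy) was taken at day 2, and its polyadenylated RNA was sequenced. Both groups received DPCP. The 3 libraries of the clodrosome group, spelled Codrosome in the sample labels, also received liposomes loaded with clodronate, which kills the phagocytes that take them up, and the 3 libraries of the encapsome group received the matching liposomes without clodronate. Strain, sex, age and the route and dose of the liposomes are not given in the sources used here, and separate animals are not named for the libraries, so the p-values below measure only the spread between these libraries.

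Keratinocytes that leave the basal layer of the epidermis build a cornified envelope, a shell of proteins crosslinked by transglutaminases beneath the cell membrane. Loricrin and involucrin are structural components of that shell, the small proline-rich (SPRR) proteins act as bridges between them, and the late cornified envelope (LCE) proteins are added in the last steps. The fused S100-type proteins, filaggrin among them, are stored in granules and bind or bundle keratin filaments. In injured or inflamed skin the SPRR1 proteins and the LCE3 proteins are known to be made in larger amounts, while the LCE1 proteins and loricrin belong to healthy epidermis.

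The members fall into classes by these roles, and stretches upstream of some of the genes on which the results turn are shown first. Each is the 250 bases before the gene's start in RefSeq (GRCm38.p6), written 5′ to 3′ on the gene's own strand. Capitals mark TGANTCA, a loose form of the letters TGAGTCA or TGACTCA bound by AP-1 factors, which reads the same on both strands. They also mark TATAAA, the letters of a TATA box, searched on the gene's strand only. Lor and Flg stand for the genes that fell and Sprr1a and Sprr1b for those that rose. Lce1m and Lce3d stand for the late envelope genes of either kind, and Sprr2f and Sprr2h for 2 close relatives called in opposite directions.
Lor, chr3:92083143-92083392, minus strand: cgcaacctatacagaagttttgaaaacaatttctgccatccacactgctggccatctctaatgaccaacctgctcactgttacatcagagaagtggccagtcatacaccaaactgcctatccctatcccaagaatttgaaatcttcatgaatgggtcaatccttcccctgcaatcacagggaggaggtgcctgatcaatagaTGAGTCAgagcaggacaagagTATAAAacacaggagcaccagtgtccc
Flg, chr3:93273296-93273545, plus strand: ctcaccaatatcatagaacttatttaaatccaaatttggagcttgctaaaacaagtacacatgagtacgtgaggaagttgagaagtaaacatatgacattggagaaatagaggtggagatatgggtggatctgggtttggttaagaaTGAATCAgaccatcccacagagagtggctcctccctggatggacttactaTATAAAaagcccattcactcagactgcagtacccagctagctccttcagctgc
Sprr1a, chr3:92485882-92486131, minus strand: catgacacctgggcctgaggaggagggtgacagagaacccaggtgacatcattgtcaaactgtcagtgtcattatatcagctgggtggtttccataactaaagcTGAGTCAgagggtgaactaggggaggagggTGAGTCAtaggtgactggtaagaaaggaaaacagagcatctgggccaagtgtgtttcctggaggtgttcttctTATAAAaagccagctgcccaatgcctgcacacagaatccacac
Sprr1b, chr3:92438780-92439029, minus strand: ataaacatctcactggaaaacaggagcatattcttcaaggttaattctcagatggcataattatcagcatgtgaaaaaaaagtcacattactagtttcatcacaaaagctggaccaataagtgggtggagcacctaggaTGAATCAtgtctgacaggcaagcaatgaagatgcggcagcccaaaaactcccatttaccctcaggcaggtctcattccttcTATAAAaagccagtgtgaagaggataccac
Lce1m, chr3:93019062-93019311, minus strand: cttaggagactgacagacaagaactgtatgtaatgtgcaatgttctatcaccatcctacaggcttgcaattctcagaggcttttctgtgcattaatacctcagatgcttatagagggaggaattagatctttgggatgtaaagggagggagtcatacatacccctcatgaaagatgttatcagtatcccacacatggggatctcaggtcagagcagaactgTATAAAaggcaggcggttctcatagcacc
Lce3d, chr3:92957140-92957389, plus strand: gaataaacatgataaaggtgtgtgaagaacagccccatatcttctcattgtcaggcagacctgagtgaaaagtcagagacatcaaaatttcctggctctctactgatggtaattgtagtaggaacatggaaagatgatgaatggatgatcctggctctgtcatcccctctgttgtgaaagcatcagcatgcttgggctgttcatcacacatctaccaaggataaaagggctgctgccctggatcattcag
Sprr2f, chr3:92364937-92365186, plus strand: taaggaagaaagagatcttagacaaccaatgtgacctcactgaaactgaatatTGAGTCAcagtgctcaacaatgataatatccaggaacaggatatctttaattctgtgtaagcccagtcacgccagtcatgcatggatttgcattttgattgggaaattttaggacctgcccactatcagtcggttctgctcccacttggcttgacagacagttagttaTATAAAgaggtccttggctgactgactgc
Sprr2h, chr3:92385435-92385684, plus strand: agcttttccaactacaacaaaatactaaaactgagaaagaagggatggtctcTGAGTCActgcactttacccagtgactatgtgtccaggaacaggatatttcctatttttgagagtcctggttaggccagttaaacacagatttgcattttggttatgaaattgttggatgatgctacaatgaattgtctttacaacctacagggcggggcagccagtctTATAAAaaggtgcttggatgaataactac

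The libraries held between 26649396 and 35566351 counts, apart from clodrosome library A with 116965654. Levels are given as CPM, read counts divided by the library total and scaled with TMM factors, and members took between 0.382% and 0.508% of all counts. Libraries are named A, B and C within a group and are not paired between groups. The shares of counts in mitochondrial genes (3.52% to 4.11% with clodrosome, 3.30% to 3.80% with encapsome) overlapped between the groups. The summed level of 6 macrophage genes was 490.2 to 1177 CPM with clodrosome and 2654 to 3180 with encapsome, all 6 being lower (13% of all tested genes were). That of 10 dermal fibroblast genes, of which 8 were lower, was 2455 to 4696 against 8478 to 10000. Summed basal keratinocyte genes ran the other way, at 25460 to 26090 CPM with clodrosome and 17400 to 21450 with encapsome, as did summed skeletal muscle genes, at 4534 to 6335 against 3269 to 3881. In whole skin, fewer cells of a type and less RNA per cell cannot be told apart, and the part of these shifts in the results below was not tested.

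Clodrosome skin had less RNA of loricrin, of Flg, Flg2, Hrnr and Rptn and of 12 of the 15 Lce1 and Lce6a genes than encapsome skin, more RNA of Sprr1a and Sprr1b, and no called difference among the LCE3 genes. Of the 45 members that could be tested, 18 (40%) were lower with clodrosome, against 13% of all 17988 tested genes, and 3 (6.67%) were higher, against 9.41% of all tested genes (22.4% in either direction). A gene was called at an adjusted p under 0.05 in edgeR's quasi-likelihood test over all 17988 genes. The median log2 difference, clodrosome minus encapsome, was -0.48 over the tested members and 0.00898 over all tested genes. The 3 libraries of a group lay wholly below those of the other for 17 members (37.8%, against 20.7% of all tested genes) and wholly above for 4 (8.89%, against 19.5%; 40.2% in either direction). Scaled to 12 basal keratinocyte genes in place of the whole transcriptome, a choice made after seeing the data that moves the median of all tested genes to -0.40, the members split into 28 lower (62.2%) and 1 higher (2.22%), against 51.6% and 1.4% of all tested genes. Only Sprr3 fell below the count filter, with 10 counts in clodrosome library A, 10 in encapsome library B and 0 in the others.

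**Figure D1:**
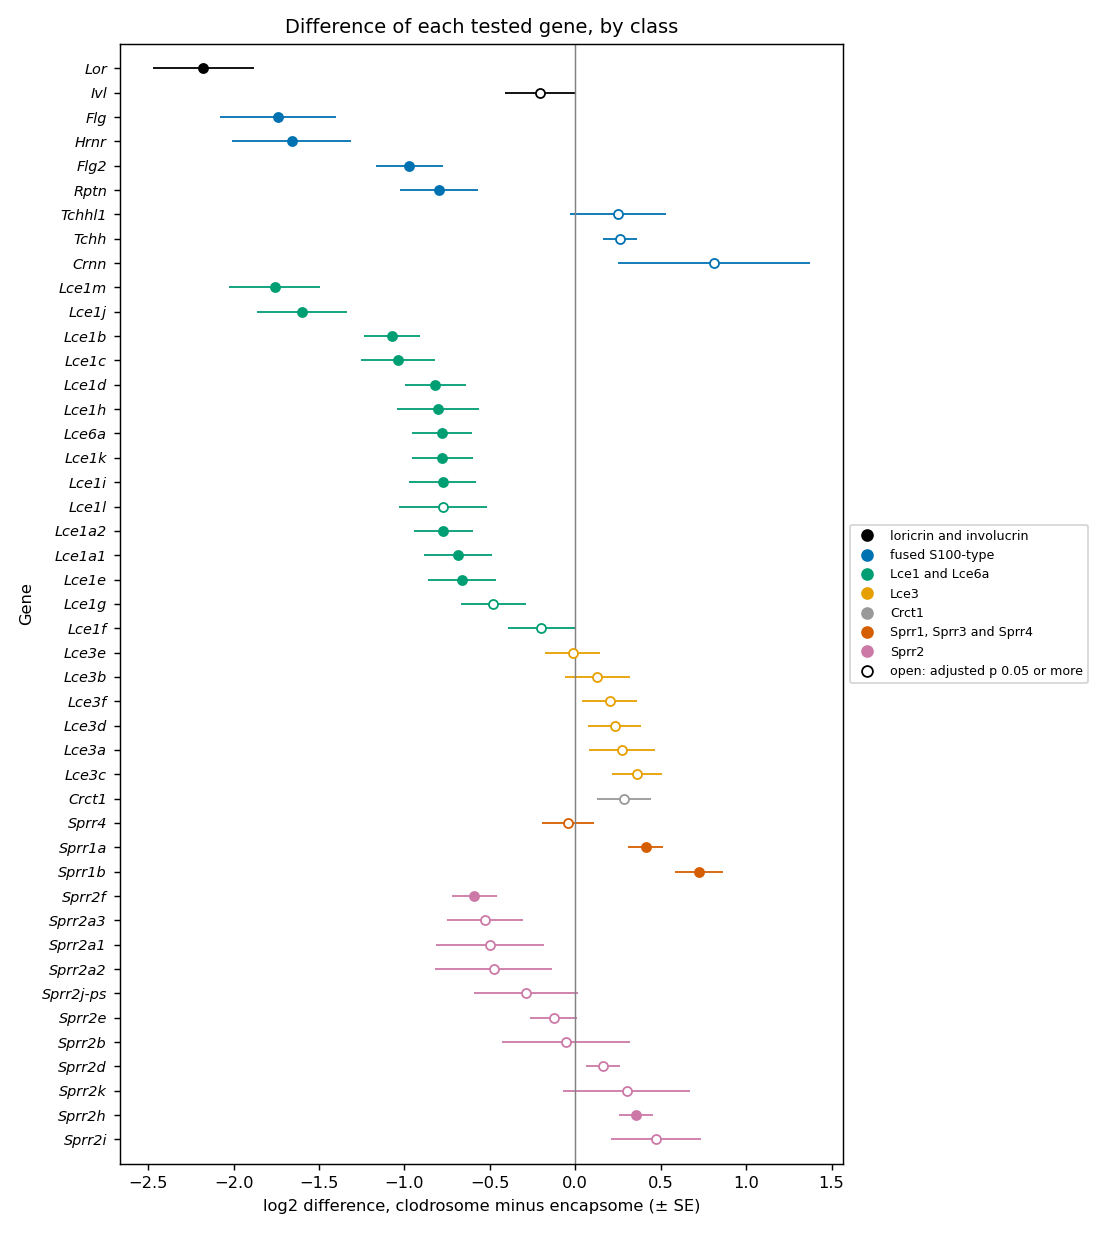
Difference between the groups for each of the 45 tested genes (log2, clodrosome minus encapsome, with the standard error as a bar), grouped and coloured by class; filled points passed an adjusted p of 0.05 and open points did not. Lor lies lowest at -2.18, 12 of the 15 Lce1 and Lce6a points are filled and below 0, all 6 Lce3 points are open, and Sprr1b is the highest filled point at 0.72.

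Loricrin, the most abundant protein of the mature envelope, had the lowest difference of all members. Lor (92080271 to 92083142, minus strand) stood at 7.76, 3.81 and 10.6 CPM in clodrosome libraries A, B and C and at 41.6, 31.9 and 27.4 CPM in encapsome libraries A, B and C. The groups were far apart, with clodrosome B lowest. The group means were 7.37 ± 3.39 and 33.7 ± 7.27 CPM (SD, n = 3 each), a 4.52-fold fall with a log2 difference of -2.18 ± 0.297 (SE; edgeR adjusted p = 0.00107).

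Involucrin is laid down early in envelope assembly and serves as a scaffold. Ivl (92570902 to 92573735, minus strand) stood at 120.4, 203.8 and 171.7 CPM with clodrosome and 243.9, 156.6 and 171.6 with encapsome, so the groups overlapped. Its log2 difference was -0.21 ± 0.205 (SE; edgeR adjusted p = 0.517). It ran from -0.38 to 0.01 when each library was left out in turn, the latter without encapsome A. Scaled to basal keratinocyte genes it was -0.60 and passed (edgeR adjusted p = 0.0173), as 51.6% of all tested genes did as lower. The ratio of Lor to Ivl counts within a library was 0.0644, 0.0187 and 0.0614 with clodrosome and 0.171, 0.204 and 0.160 with encapsome, and does not depend on the scaling of libraries. These ratios did not overlap between the groups; 3 against 3 libraries cannot give an exact permutation p below 0.1.

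Among the 7 fused S100-type genes, which encode large repeat proteins joined to a calcium-binding S100 domain, 4 fell and 3 were not called. The share that fell was 57.1%, against 13% of all tested genes. Flg (93273523 to 93293686, plus strand) encodes profilaggrin, the granule precursor of the keratin-bundling protein filaggrin. It stood at 26.8, 14.1 and 41.3 CPM with clodrosome and 121.0, 90.1 and 64.5 CPM with encapsome. The groups did not overlap, and the closest pair was clodrosome C and encapsome C. The difference was -1.74 ± 0.340 (log2, SE; edgeR adjusted p = 0.00634), a 3.35-fold fall.

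Hornerin, a close relative of filaggrin, followed the same order of libraries. Hrnr (93319749 to 93333570, plus strand) stood at 27.4, 12.7 and 44.9 CPM with clodrosome and 104.8, 89.99 and 74.7 with encapsome. It fell 3.16-fold (log2 difference -1.66 ± 0.350, SE; edgeR adjusted p = 0.00920), with no overlap. Flg2 (93197278 to 93221391, plus strand), which encodes filaggrin 2, stood at 26.0, 21.6 and 34.4 CPM with clodrosome and 69.1, 45.2 and 46.6 with encapsome. Its 1.96-fold fall (log2 difference -0.97 ± 0.196, SE; edgeR adjusted p = 0.00751) was smaller, and its groups did not overlap either. The transcripts of these 3 genes repeat themselves. In windows of 150 bases, 62.4% of those of Flg, 66.2% of those of Hrnr and 46.2% of those of Flg2 occurred more than once within the same transcript, and reads that match several places were left out of the counts, so the levels of these genes may be too low by an amount that was not measured.

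Repetin, a further envelope precursor of this group, was the most abundant of the 4 per length, at 53.3 CPM per kilobase of exon with clodrosome and 92.8 with encapsome. Rptn (93393699 to 93399442, plus strand) stood at 225.7, 187.2 and 250.2 CPM with clodrosome and 548.7, 335.5 and 270.1 with encapsome. The groups did not overlap, but encapsome A lay far above encapsome C. Its log2 difference of -0.80 ± 0.228 (SE; edgeR adjusted p = 0.0338) was not called by DESeq2 (adjusted p = 0.0719), nor by edgeR without any 1 of the libraries other than encapsome C (adjusted p from 0.0536 to 0.0796), and it was -0.45 without encapsome A.

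The order of libraries was shared by the members of this set. In clodrosome skin, library B was lowest and library C highest for each of Lor, Flg, Flg2, Hrnr and Rptn, and in encapsome skin library A was highest for all 5 and library C lowest for 4. Clodrosome B was also lowest for the summed macrophage genes (490.2 CPM against 1177 and 972) and the summed fibroblast genes (2455 against 4696 and 3441), and their part in this order was not tested. Against Krt10, a keratin of the first layers above the basal one, Lor counts stood at 0.276, 0.173 and 0.231 with clodrosome and 0.496, 0.387 and 0.346 with encapsome, with no overlap. Flg counts over Krt10 counts did overlap, at 0.952, 0.640 and 0.904 against 1.44, 1.09 and 0.814. Flg over Rptn counts ran from 0.0755 to 0.165 with clodrosome and from 0.220 to 0.269 with encapsome.

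The 3 other fused S100-type genes did not pass. Trichohyalin, a protein of the inner root sheath of the hair follicle, is encoded by Tchh, at 15.8, 16.2 and 14.7 CPM with clodrosome and 13.8, 11.98 and 13.3 CPM with encapsome. The clodrosome libraries lay above the encapsome libraries, and the log2 difference of 0.26 ± 0.102 (SE) missed the threshold (edgeR adjusted p = 0.0966) and became -0.14 when scaled to basal keratinocyte genes. Tchhl1, a trichohyalin-like gene, averaged 1.86 and 1.55 CPM, and Crnn, the gene of the squamous protein cornulin, 0.415 and 0.223 CPM with clodrosome and encapsome, at adjusted p-values of 0.574 and 0.343 in edgeR.

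**Figure D2:**
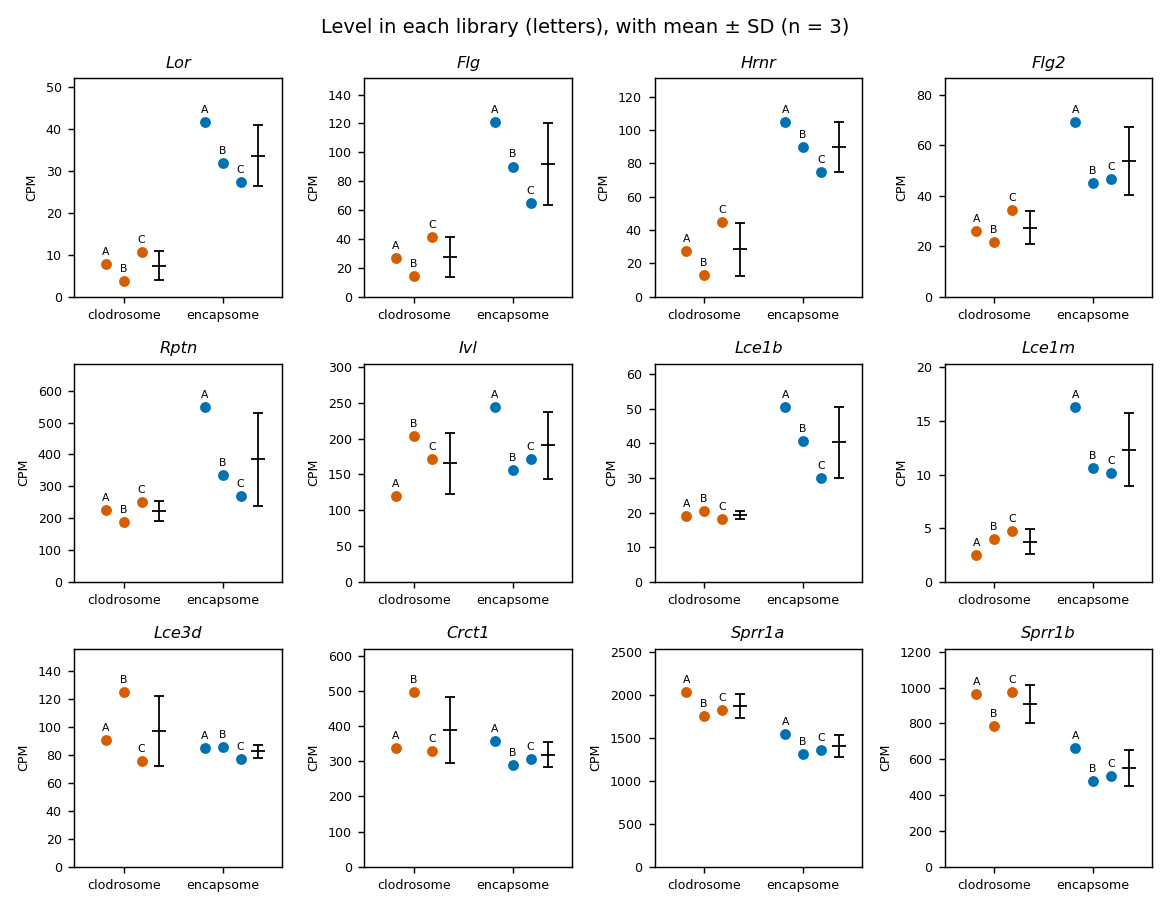
Level in each library (CPM, points lettered by library) for 12 genes, with the mean and standard deviation of each group (n = 3) beside the points; every axis starts at 0. The clodrosome points of Lor, Flg, Hrnr, Flg2, Rptn, Lce1b and Lce1m all lie below the encapsome points, those of Sprr1a and Sprr1b all lie above them, and those of Ivl, Lce3d and Crct1 overlap with them.

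Of the 15 Lce1 and Lce6a genes, which encode late envelope proteins of healthy skin, 12 (80%) were lower with clodrosome, against 13% of all tested genes. In this class 0 were higher, against 9.41%, and 3 were not called. At unadjusted p-values under 0.05 the edgeR test picked 14 of the 15, all but Lce1f, against 35.8% of all tested genes, and DESeq2 called 14 lower and 0 higher, against 13.2% and 9.67% of all genes it tested. Their log2 differences ran from -1.76 to -0.20 with a median of -0.78. For 11 of them (73.3%) the groups did not overlap, against 20.7% of all tested genes lower without overlap. The differences kept their sign under upper-quartile and RLE factors.

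Lce1m had the greatest difference of the class. Lce1m (93017810 to 93019060, minus strand) stood at 2.47, 4.01 and 4.72 CPM with clodrosome and 16.3, 10.6 and 10.1 with encapsome, a 3.38-fold fall (log2 difference -1.76 ± 0.266, SE; edgeR adjusted p = 0.00182). It lies apart from the other Lce1 genes, beyond the Lce3 genes and next to Crct1. Lce1j (92788840 to 92790514, minus strand), inside the main Lce1 row, stood at 3.92, 2.17 and 2.21 CPM with clodrosome and 8.52, 10.8 and 6.69 with encapsome, and fell 3.03-fold (log2 difference -1.60 ± 0.263, SE; edgeR adjusted p = 0.00276). Neither gene had overlapping groups.

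Lce1b and Lce1c showed smaller falls. Lce1b (92655650 to 92656926, minus strand) stood at 19.1, 20.4 and 18.1 CPM with clodrosome and 50.5, 40.6 and 29.9 with encapsome, a log2 difference of -1.07 ± 0.164 (SE; edgeR adjusted p = 0.00189). Lce1c (92679247 to 92680918, plus strand) stood at 12.2, 8.94 and 11.1 CPM with clodrosome and 29.1, 22.5 and 15.1 with encapsome, with a difference of -1.04 ± 0.216 (SE; edgeR adjusted p = 0.00854). The encapsome libraries spread far more than the clodrosome libraries, as in Lce1b, where the SD was 10.3 CPM against 1.13.

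Another 8 genes of the class were called, with smaller differences, and the levels of 7 of them did not overlap between the groups. Lce1d (92685499 to 92687210, minus strand) stood at 13.4, 12.7 and 12.2 CPM with clodrosome and 29.6, 21.1 and 16.8 with encapsome. Lce1a2 stood at 23.6, 22.9 and 21.7 CPM with clodrosome, against 51.3, 35.8 and 29.4 with encapsome. Lce1k was measured at 9.80, 12.03 and 8.40 CPM in clodrosome skin and at 20.97, 17.2 and 13.5 in encapsome skin. In these 3 genes the lowest encapsome library, C, still lay above the highest clodrosome library. Lce6a (92620081 to 92621660, minus strand), the single gene of its subfamily, gave 3.56, 4.47 and 4.39 CPM with clodrosome and 8.58, 6.35 and 6.20 with encapsome. Lce1i gave 13.5, 13.4 and 10.3 CPM against 26.4, 22.3 and 15.02. Lce1h gave 7.78, 6.74 and 7.51 CPM against 17.5, 12.9 and 7.99. These also did not overlap, although encapsome C came close to the clodrosome libraries in Lce1h. Lce1e gave 19.2, 21.03 and 14.7 CPM with clodrosome and 37.5, 27.9 and 21.5 with encapsome, where encapsome C lay just above clodrosome B.

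Together with Lce1a1, these 7 genes differed by -0.82 to -0.66. Lce1d, Lce1k, Lce1a2 and Lce6a changed by -0.82, -0.78, -0.77 and -0.78, at adjusted p-values of 0.0111, 0.0138, 0.0120 and 0.0126 in edgeR. Lce1i, Lce1h, Lce1a1 and Lce1e changed by -0.78, -0.80, -0.69 and -0.66, at adjusted p-values of 0.0203, 0.0394, 0.0374 and 0.0398 in edgeR. The calls of that last set were lost without any 1 of 3 to 5 libraries. Without encapsome A all 4 were lost, at differences of -0.59, -0.51, -0.41 and -0.43 and edgeR adjusted p-values from 0.0710 to 0.128, as was that of Lce1k (0.0510). All 4 were also lost without clodrosome C and without encapsome B, 3 of them (Lce1a1, Lce1e and Lce1h) without clodrosome A, and Lce1h without clodrosome B, at differences from -0.85 to -0.53 and edgeR adjusted p-values from 0.0666 to 0.117. Lce1a1, the most abundant of the class per length at 59.1 and 95.0 CPM per kilobase with clodrosome and encapsome, had overlapping groups, at 40.4, 47.3 and 37.3 CPM with clodrosome and 90.3, 63.7 and 46.9 with encapsome.

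The 3 genes of this class that did not pass were Lce1l, Lce1g and Lce1f. Lce1l and Lce1g had differences of -0.77 and -0.48 (edgeR adjusted p = 0.0571 and 0.102) and passed in DESeq2 (adjusted p = 0.0126 and 0.0359) and in edgeR without encapsome C (adjusted p = 0.0200 and 0.0410). Lce1f had a difference of -0.20 (edgeR adjusted p = 0.514), which was 0.07 without encapsome A. Lce1f stood at 34.9, 39.3 and 32.7 CPM with clodrosome and 54.96, 39.0 and 28.5 with encapsome. Lce1g stood at 19.8, 22.7 and 14.9 CPM with clodrosome, against 32.6, 27.4 and 20.01 with encapsome. Lce1l gave 4.41, 3.32 and 3.84 CPM with clodrosome and 9.35, 6.19 and 4.37 with encapsome. All 3 had overlapping groups, and in each encapsome C fell among the clodrosome libraries or below them. Encapsome A was the highest library of its group for 14 of the 15 genes, and encapsome C was the lowest for all 15. Summed over the class, levels were 228.1, 241.3 and 204.1 CPM with clodrosome and 483.6, 364.4 and 272.0 CPM with encapsome, so the sum was lower without overlap, by -0.70 in the mean log2 level and by -0.49 without encapsome A.

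The Lce3 genes, the late envelope genes known from wounds and psoriasis, showed no called difference. Of the 6, edgeR called 0, against 22.4% of all tested genes. Lce3c alone had an unadjusted edgeR p under 0.05, against 35.8% of all tested genes, and DESeq2 called it higher, against 9.67%. The log2 differences ran from -0.02 to 0.36 with a median of 0.22 and edgeR adjusted p-values from 0.108 to 0.956. Scaled to basal keratinocyte genes all 6 were below 0, from -0.41 for Lce3e to -0.04 for Lce3c. Lce3e then passed as lower (edgeR adjusted p = 0.0295), as did 51.6% of all tested genes.

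Lce3d was the most abundant of them per length, at 198 and 168 CPM per kilobase with clodrosome and encapsome. It stood at 90.8, 124.8 and 75.8 CPM with clodrosome and 84.7, 85.8 and 77.4 with encapsome, and the groups overlapped (log2 difference 0.23 ± 0.155, SE; edgeR adjusted p = 0.326). Lce3c stood at 74.8, 102.7 and 65.3 CPM with clodrosome and 66.4, 62.6 and 59.5 with encapsome. Its difference of 0.36 ± 0.146 (SE; edgeR adjusted p = 0.108) passed in DESeq2 (adjusted p = 0.0498) and without clodrosome C (edgeR adjusted p = 0.0353). It also passed with no filter on low counts (edgeR adjusted p = 9.82e-04). That fit carries little weight, since it took the edgeR adjusted p of Lor from 0.00107 to 2.51e-64 at nearly the same difference. Clodrosome B, the lowest library for filaggrin and its relatives, was the highest of its group for 5 of the 6 Lce3 genes. Between 3.22% and 36.8% of the windows of Lce3c, Lce3d, Lce3e and Lce3f occurred in another gene, so part of their reads may have been left out.

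The 4 remaining Lce3 genes had lower levels per length, between 15.8 and 39.8 CPM per kilobase in either group, and overlapping groups. Lce3a stood at 11.6, 12.3 and 7.54 CPM with clodrosome and 10.1, 7.82 and 8.06 with encapsome. Lce3b stood at 16.6, 17.1 and 11.1 CPM with clodrosome, against 16.1, 13.9 and 10.9 with encapsome. For both, clodrosome C lay well below clodrosome A and B. Lce3e gave 26.2, 25.9 and 19.6 CPM with clodrosome and 30.0, 21.2 and 21.3 with encapsome, and Lce3f gave 24.2, 26.0 and 17.4 and 23.3, 18.2 and 17.4 CPM. Across all 6 Lce3 genes clodrosome C was the lowest library of its group.

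The ratio of summed Lce1 and Lce6a levels to summed Lce3 levels within a library set these late envelope classes side by side. It was 0.934, 0.781 and 1.04 with clodrosome and 2.10, 1.74 and 1.40 with encapsome, so that each encapsome library had more Lce1 and Lce6a than Lce3 counts while the clodrosome libraries lay near even. The ratios did not overlap and are independent of the scaling of libraries. Crct1, a small cysteine-rich gene beside Lce1m, stood at 338.9, 495.8 and 328.0 CPM with clodrosome and 357.6, 289.6 and 307.3 with encapsome. Its difference of 0.28 ± 0.157 (SE; edgeR adjusted p = 0.231) passed only with no filter on low counts (edgeR adjusted p = 0.0185). That fit gave far smaller p-values for other members too, such as Lor. The difference of Crct1 was 0.07 without clodrosome B, and -0.12 when scaled to basal keratinocyte genes.

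Sprr1a and Sprr1b, envelope bridge proteins that keratinocytes make under stress, rose with clodrosome. Sprr1b (92436809 to 92438789, minus strand) stood at 966.7, 783.9 and 973.9 CPM with clodrosome and 665.4, 479.5 and 506.0 with encapsome. The groups did not overlap, and the means of 908.2 ± 107.7 and 550.3 ± 100.6 CPM (SD, n = 3 each) gave a 1.65-fold rise (log2 difference 0.72 ± 0.139, SE; edgeR adjusted p = 0.00595). The call held whichever library was left out (adjusted p of 0.00293 to 0.0328 in edgeR), and scaled to basal keratinocyte genes the difference was 0.33 (edgeR adjusted p = 0.0481).

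Sprr1a (92483952 to 92485895, minus strand) was the most abundant member per length, at 2326 CPM per kilobase with clodrosome and 1749 with encapsome. It stood at 2035, 1758 and 1831 CPM with clodrosome and 1553, 1318 and 1359 with encapsome, with no overlap, a 1.33-fold rise (log2 difference 0.41 ± 0.101, SE; edgeR adjusted p = 0.0180). That call was lost without clodrosome C, encapsome B or encapsome C (edgeR adjusted p = 0.0504, 0.0866 and 0.0829), and scaled to basal keratinocyte genes the difference was 0.01 (edgeR adjusted p = 0.946). The summed counts of both genes over those of the basal keratins Krt5 and Krt14 were 0.141, 0.116 and 0.129 with clodrosome and 0.122, 0.124 and 0.116 with encapsome, and overlapped. The ratio of Sprr1b to Sprr1a counts was 0.475, 0.446 and 0.532 with clodrosome and 0.429, 0.364 and 0.372 with encapsome, which did not overlap.

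Sprr4, another gene of the SPRR family, stood at 150.7, 226.7 and 192.2 CPM with clodrosome and 222.2, 166.3 and 197.7 with encapsome. Its groups overlapped and its log2 difference was -0.04 ± 0.151 (SE; edgeR adjusted p = 0.874). Scaled to basal keratinocyte genes it became -0.44 and passed (edgeR adjusted p = 0.0209), as 51.6% of all tested genes did as lower. Sprr3, a gene of internal squamous linings, was left out of the test for its low counts.

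The 11 Sprr2 genes, a row of closely related bridge proteins, did not move one way. Sprr2h rose (9.09%, against 9.41% of all tested genes), Sprr2f fell (9.09%, against 13%) and 9 were not called. Neither share was above that of all tested genes. Sprr2f (92365187 to 92366442, plus strand) stood at 20.5, 19.0 and 22.6 CPM with clodrosome and 34.6, 34.1 and 24.8 with encapsome, a 1.51-fold fall (log2 difference -0.59 ± 0.132, SE; edgeR adjusted p = 0.0121; 0.0592 without encapsome B). Sprr2h (92385685 to 92387324, plus strand) stood at 209.8, 192.2 and 212.5 CPM with clodrosome and 184.5, 149.0 and 146.3 with encapsome, a 1.28-fold rise (log2 difference 0.36 ± 0.101, SE; edgeR adjusted p = 0.0324). Neither gene had overlapping groups. The call of Sprr2h was lost without clodrosome A, clodrosome C, encapsome B or encapsome C (edgeR adjusted p from 0.0747 to 0.128), and its difference was -0.04 when scaled to basal keratinocyte genes.

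The other 9 Sprr2 genes had log2 differences from -0.53 to 0.47 and edgeR adjusted p-values from 0.122 to 0.939. Sprr2i lay highest at 0.47 (edgeR adjusted p = 0.233), and the 3 Sprr2a genes lay lowest, at -0.53 for Sprr2a3, -0.50 for Sprr2a1 and -0.48 for Sprr2a2. Of the windows of Sprr2a1, Sprr2a2 and Sprr2a3, 89.6%, 89.0% and 19.0% occurred in another gene, so their levels are uncertain, least so for Sprr2a3. Sprr2a1 passed as lower without encapsome B (edgeR adjusted p = 0.0403) and Sprr2a3 without clodrosome C (edgeR adjusted p = 0.0113). Sprr2b, Sprr2k and Sprr2j-ps averaged below 3 CPM in both groups. The sum over the class was 427.1, 410.3 and 459.3 CPM with clodrosome and 518.1, 403.7 and 365.8 with encapsome, which overlapped.

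Levels of the uncalled Sprr2 genes above 5 CPM on average overlapped between the groups. Sprr2d stood at 80.3, 71.0 and 76.1 CPM with clodrosome and 70.8, 74.1 and 58.0 with encapsome. Sprr2e stood at 35.0, 32.2 and 33.5 CPM with clodrosome, against 41.8, 40.1 and 28.1 with encapsome. In both, encapsome C was the lowest library. Sprr2a1 gave 30.0, 34.4 and 26.5 CPM with clodrosome and 67.3, 22.2 and 39.0 with encapsome. Sprr2a2 gave 15.4, 15.6 and 21.9 CPM against 41.5, 17.3 and 14.7, and Sprr2a3 gave 28.3, 38.6 and 57.0 CPM against 69.6, 57.9 and 50.3. Encapsome A was the highest library of all for each of these 3.

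**Figure D3:**
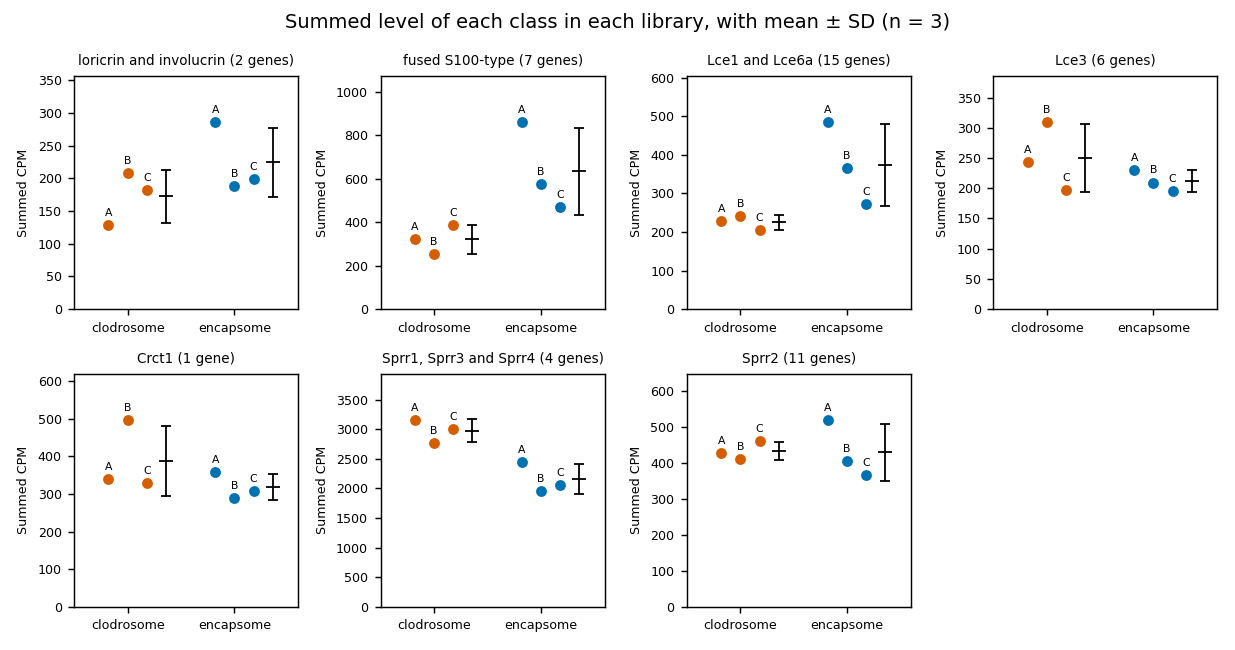
Summed level (CPM) of the genes of each class in each library, lettered, with the mean and standard deviation of each group (n = 3); every axis starts at 0. The fused S100-type and the Lce1 and Lce6a sums are lower with clodrosome without overlap, the sum of Sprr1, Sprr3 and Sprr4 is higher without overlap, and the other sums overlap.

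Summed over all 46 members the groups overlapped, at 4761 ± 78.1 CPM with clodrosome and 4347 ± 719 CPM with encapsome (SD, n = 3 each). The make-up of that sum differed. Taken per kilobase of exon, Sprr1, Sprr3 and Sprr4 together made up 68.8% ± 2.97 of the members' level with clodrosome and 61.9% ± 2.47 with encapsome (SD, n = 3 each), with no overlap. Lce1 and Lce6a genes made up 5.04% ± 0.318 against 9.73% ± 1.75, and fused S100-type genes 1.01% ± 0.184 against 2.08% ± 0.445, also with no overlap. Loricrin and involucrin together made up 1.46% ± 0.335 against 2.22% ± 0.222, with no overlap, although their summed CPM overlapped. Lce3 genes made up 7.48% ± 1.56 and 7.46% ± 0.513, and Sprr2 genes 8.31% ± 0.588 and 8.995% ± 0.681, and overlapped. Crct1 made up 7.91% ± 1.78 and 7.63% ± 0.292 and overlapped too. Per length, most of the envelope RNA measured in these libraries was of the Sprr1 and Sprr4 genes in both groups. This share leans in part on Sprr4, at 822 and 846 CPM per kilobase with clodrosome and encapsome. Its exon length in the table is 231 bases, the shortest of the members, and whether that length is complete was not tested.

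**Figure D4:**
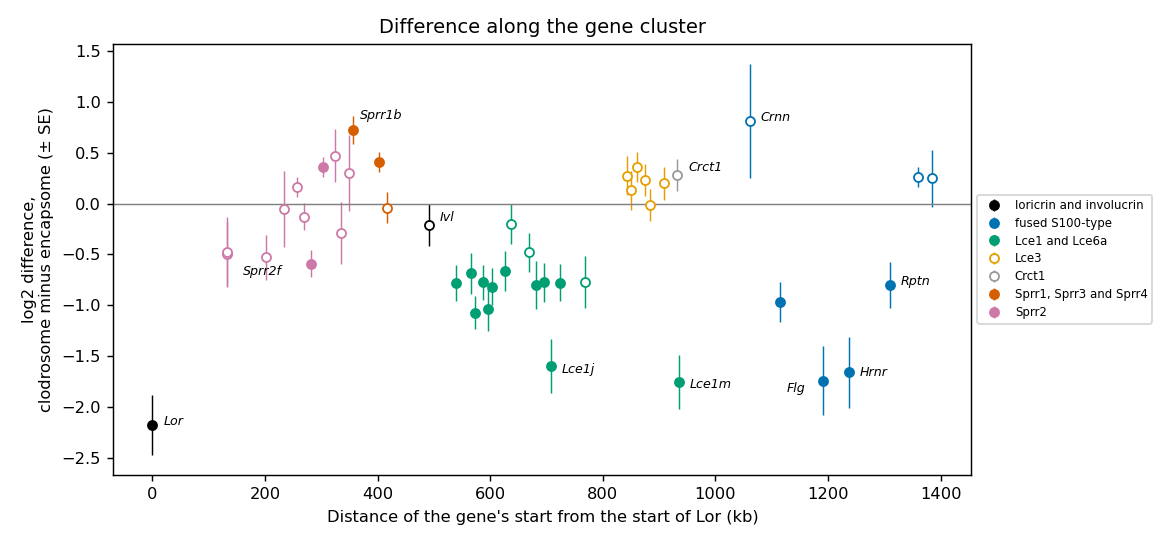
Difference between the groups (log2, clodrosome minus encapsome, with the standard error as a bar) against the distance of each gene's start from the start of Lor in kilobases, coloured by class, with filled points for genes that passed an adjusted p of 0.05. Lower genes lie toward both ends of the cluster and in the Lce1 row, while the points of the Sprr1 genes and of the Lce3 row, save that of Lce3e, lie above 0 between them. Starts are those of the counted exons, which put Sprr2a2 (132.8) beside Sprr2a1 (132.7). The RefSeq stretch upstream of Sprr2a2 ends farther on, at 92250646.

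Position within the cluster did not sort the genes by direction as a single block. Lor, with the lowest difference, and Sprr2f, Sprr2h and Sprr1b, the nearest called genes, lie on the same side of Ivl. The 6 Lce3 genes and Crct1 lie between Lce1l and Lce1m, with differences of -0.77 and -1.76 on either side of them. Counted from the start of Lor, Lce1m starts at 936 kilobases, next to Crct1 at 933 kilobases, which did not pass. At the far end Flg2, Flg, Hrnr and Rptn, all lower, lie between Crnn and Tchh, neither of which passed.

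The upstream sequences held the letters TGANTCA in 16 of the 43 members with a RefSeq entry (37.2%), against 6.75% of all 32851 promoters of the same length. They were in the sequences of both Lor and Ivl, of 5 of 7 fused S100-type genes, of 7 of 10 Sprr2 genes and of Sprr1a and Sprr1b, and in those of 0 of 14 Lce1 and Lce6a genes and 0 of 6 Lce3 genes. In the sequences printed above, they start 48 bases before the start of Lor, 103 before that of Flg, 111 before that of Sprr1b and 146 and 116 before that of Sprr1a. In the 7 Sprr2 genes they start 193 to 198 bases before the gene's start, with a further match at 182 in Sprr2k, and TATAAA starts 29 bases before it, in Sprr2f and Sprr2h alike. By call, TGANTCA was found for 3 of 3 higher members, 5 of 18 lower members and 8 of 21 members that were not called. The match read TGAATCA in Sprr1b, Flg, Flg2, Crnn and Tchhl1 and TGATTCA in Rptn, looser than TGAGTCA or TGACTCA in the others. TATAAA was found for 18 of 43 members (41.9%), against 7.59% of all promoters. CACCC, a core bound by KLF factors, searched on both strands, was found for 18 of 43 members against 52% of all promoters, and AACCNGTT, the letters bound by grainyhead-like factors, for Rptn alone against 1.79%. In Sprr1a an AP-1 match overlaps a CACCC match on the other strand, and no other pair of motifs overlapped among the members. Neighbouring members descend from duplicated genes, so these matches are not independent of each other.

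Other genes of envelope assembly and of the same layers did not move as a block. Of all 17988 tested genes 9.41% rose and 13% fell, the shares to set beside each list below. Of 19 tested genes for crosslinking, scaffolding and filaggrin processing, 3 rose and 2 fell, with a median of 0.14. Cnfn, which encodes the envelope protein cornifelin, rose at 246.3, 247.7 and 238.9 CPM with clodrosome against 192.0, 169.2 and 173.1 with encapsome (log2 difference 0.46; edgeR adjusted p = 0.00294). Tgm3, a transglutaminase, stood at 14.96, 5.09 and 11.8 CPM with clodrosome and 27.2, 27.1 and 17.6 with encapsome (log2 difference -1.15; edgeR adjusted p = 0.0320; 0.0718 to 0.109 if clodrosome C, encapsome A or encapsome B was left out; DESeq2 adjusted p = 0.0619). Furin, a protease that cuts precursor proteins, changed by -0.33 (edgeR adjusted p = 0.0201; 0.0546, 0.0807 and 0.0869 without clodrosome A, clodrosome C and encapsome B). Dsp, the desmosomal protein desmoplakin, rose by 0.38 (edgeR adjusted p = 0.0307; 0.0793 to 0.124 without clodrosome A, clodrosome C, encapsome B or encapsome C). Tgm1, the main transglutaminase of the envelope, did not pass (log2 difference 0.24; edgeR adjusted p = 0.0926).

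Of 17 other suprabasal keratinocyte genes 4 rose and 3 fell, against 9.41% and 13% of all tested genes, with a median of 0.04. The 3 that fell were keratins. Krt10 stood at 28.2, 22.1 and 45.7 CPM with clodrosome and 83.9, 82.5 and 79.3 with encapsome (log2 difference -1.36; edgeR adjusted p = 0.00226), Krt1, its partner, changed by -1.10 (edgeR adjusted p = 0.00994), and Krt77 by -2.51 (edgeR adjusted p = 2.29e-04). Calml3, a calmodulin-like gene of keratinocytes, rose by 0.60 (edgeR adjusted p = 0.00465). Of 12 basal keratinocyte genes 8 rose and 0 fell, with a median of 0.45. At unadjusted p-values under 0.05 edgeR picked 9 of the 12, against 35.8% of all tested genes. DESeq2 called 8 of the 12 higher, against 9.67% of all genes it tested. Among them Trp63, a transcription factor of the basal layer, rose, at 393.5 ± 5.53 CPM with clodrosome against 273.3 ± 2.34 with encapsome (SD, n = 3 each; log2 difference 0.53; edgeR adjusted p = 8.39e-04). Of 17 genes of activated keratinocytes 6 rose and 3 fell, with a median of 0.10, and its smallest p-values belonged to genes of both directions. Lcn2, an iron-scavenging protein also made by neutrophils, rose by 1.72 (edgeR adjusted p = 1.23e-04), the wound keratin Krt17 by 0.65 (edgeR adjusted p = 0.00320) and the defensin gene Defb4 by 0.69 (edgeR adjusted p = 0.00683). Stfa1, a stefin protease inhibitor from a family of close copies, changed by -0.96 (edgeR adjusted p = 4.63e-04). Scaled to the basal keratinocyte genes, Krt17 and Defb4 were no longer called, at 0.25 and 0.29 (edgeR adjusted p = 0.0787 and 0.116). The calls of Cnfn (0.054), Dsp (-0.026), Calml3 (0.19) and Trp63 (0.12, itself in the scaling list) were lost as well.

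Of 24 transcription factors of terminal differentiation 7 rose and 3 fell, against 9.41% and 13% of all tested genes, with a median of 0.14. Maf, which acts in keratinocyte differentiation and is also made by macrophages, changed by -1.01 (edgeR adjusted p = 5.72e-04). The grainyhead-like gene Grhl1 rose by 0.43 (edgeR adjusted p = 0.00427). Klf4, a factor of barrier formation, did not pass (log2 difference 0.06; edgeR adjusted p = 0.675). Of 15 tested further genes of the epidermal differentiation complex, most of them S100 genes, 4 rose and 1 fell, with a median of 0.32. Pglyrp3, a peptidoglycan-binding protein, rose by 0.48 (edgeR adjusted p = 0.00804), and S100a7a, a psoriasin relative, by 0.72 (edgeR adjusted p = 0.0251; 0.0769 and 0.0924 without encapsome A and encapsome B). Of the hair follicle lists, 4 of 12 hair shaft genes and 3 of 10 inner root sheath genes could be tested, and Hoxc13, a hair shaft regulator, was the only call, at 0.65 (edgeR adjusted p = 0.0180; 0.0581 to 0.0695 without clodrosome A, clodrosome C, encapsome A or encapsome C). Of the 3 inner root sheath genes 1 had an unadjusted edgeR p under 0.05, against 35.8% of all tested genes, and DESeq2 called 0. Scaled to basal keratinocyte genes, all 7 transcription factors that rose lost their call, Grhl1 at 0.032. Pglyrp3 (0.080), S100a7a (0.32) and Hoxc13 (0.23) lost theirs too.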

How the data were processed

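Raw read counts of 55487 genes in 6 libraries were deposited; the authors counted with featureCounts 1.6.2 against Ensembl 102 (GRCm38), per the file headers. The submitters' processing notes also name Trimmomatic 0.36, HISAT2 2.2.1, StringTie 2.2.1, DESeq2 1.34.0 and mm10. The command in the header sets no option for read pairs, strand or multiply mapped reads. With that tool's defaults each end of a pair is counted, strand is ignored and multiply mapped reads are left out, so genes with near-identical copies or internal repeats can lose reads. The table's exon lengths gave the levels per kilobase. Columns were matched to groups by name, since their numbers are not the replicate numbers of the titles.

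Symbols were found for 99.5% of genes. The quasi-likelihood test of edgeR 4.0.16 (R 4.3.3) was fitted on all genes passing filterByExpr (minimum count 10, total 15), with group as the only term, TMM scaling and Benjamini-Hochberg adjustment. It was tested on simulated counts. The SE of a log2 difference was worked back from that test, as the size of the difference divided by the square root of its F value. The common coefficient of biological variation was 0.125. A count of 0 allows up to 0.0502 CPM in clodrosome A and 0.166 to 0.228 CPM elsewhere (3 fragments, taken as 6 counts; counting error only). Libraries within a group differed by a chi-square of 9.20 to 47.7 per gene, so no pair looked like the same library sequenced again. These values cannot tell libraries of separate animals from repeat libraries of the same animal, which was not tested.

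Alternatives were RLE and upper-quartile factors, no filter, DESeq2 1.42.0, raw totals, leaving out each library, and, added after seeing the data, scaling to basal keratinocyte genes and class sums without genes sharing windows. The members, classes and 13 lists were chosen with earlier results of these data known. Members were named by role when called or averaging at least 5 CPM, list genes by smallest p, up to 4 a list, and a few others for their known role after their values were seen. Some list genes that the rule selects are not reported here. Class sums and ratios are given with no p, although an exact permutation test of the sums was planned. Promoters are from RefSeq (GRCm38.p6).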

Additional observations from a re-analysis of the deposited data

How the results depend on the processing

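Of the 21 called members, 12 kept their call without each library in turn: Lor, Flg, Flg2, Hrnr, Lce1a2, Lce1b, Lce1c, Lce1d, Lce1j, Lce1m, Lce6a and Sprr1b. No called member reversed under RLE or upper-quartile factors, DESeq2, no filter or without any 1 library. Leaving out each library gave 1 to 3 members called higher (1 without encapsome B or encapsome C) and 12 to 20 called lower, and 19 to 42 genes of the other lists called higher (19, 24 and 26 without encapsome B, encapsome C and clodrosome C) and 23 to 34 called lower. Over all 18340 to 18493 genes tested in these fits, 821 to 1964 were called higher and 1656 to 2432 lower. The fit with all libraries called 1692 and 2343 of 17988, so calls varied over all genes too. With no filter on low counts 5 members were called higher and 23 lower, against 2199 and 2530 of all 33166 genes in that fit. Its edgeR adjusted p-values were far smaller at nearly the same differences. They were 2.51e-64 for Lor, 2.18e-66 for Flg and 1.83e-60 for Hrnr, against 0.00107, 0.00634 and 0.00920. The cause was not tested, and the calls gained there carry little weight. Scaled to basal keratinocyte genes, 1 member was called higher and 28 lower, and 3 list genes higher and 71 lower, against 1.4% higher and 51.6% lower of all tested genes; that scaling lowers every difference by construction. Under it the difference reversed for Sprr2d (-0.24), Sprr2h (-0.043), Sprr2k (-0.11), Lce3a (-0.13), Lce3b (-0.28), Lce3c (-0.042), Lce3d (-0.18), Lce3f (-0.20), Crct1 (-0.12), Tchh (-0.14) and Tchhl1 (-0.14), of which only Sprr2h was called before. Lce3e became 0.018 with upper-quartile factors. Without each library in turn, differences of uncalled members crossed 0 for Sprr2a2 (-0.74 to 0.14), Sprr2b (-0.35 to 0.22), Sprr2j-ps (-0.55 to 0.059), Sprr2k (-0.011 to 0.56), Sprr4 (-0.19 to 0.10), Ivl (-0.38 to 0.0079), Lce1f (-0.40 to 0.073), Lce3b (-0.0064 to 0.30), Lce3e (-0.10 to 0.17) and Tchhl1 (-0.0058 to 0.41). No paired analysis was possible because the column names carry numbers that are not the replicate numbers of the titles. Windows unique in the genome were not run, since no genome was used here, and windows of transcripts took their place. Low members such as Crnn and Sprr3 are limited by depth.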

Other observations

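The pseudogene rows of the family that were left out include 1 with a clear level. Sprr2g, annotated as a polymorphic pseudogene, stood at 52.7, 64.9 and 51.0 CPM with clodrosome and 66.6, 62.2 and 56.5 with encapsome, with a log2 difference of -0.14 ± 0.106 (SE; edgeR adjusted p = 0.395). Per length, at 86.3 and 94.9 CPM per kilobase, it lay between its neighbours Sprr2f, at 34.0 and 51.2, and Sprr2h, at 272 and 213. The groups overlapped, as they did for 9 of the 11 Sprr2 members, while 40.2% of all tested genes had groups without overlap.

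The lists for other structures of the skin were counted in the same way. Over all tested genes 13% were lower and 9.41% higher in edgeR, and 13.2% and 9.67% in DESeq2. Of 10 adipocyte genes 3 were lower and 0 higher with clodrosome, with a median log2 difference of -0.24, and by DESeq2 5 were lower and 0 higher. Of 10 sebaceous gland genes 2 were lower and 1 higher, with a median of 0.11. The lower 2 were Soat1, which esterifies cholesterol, at -1.39, and Scd1, a fatty acid desaturase, at -0.89 (edgeR adjusted p = 1.23e-04 and 4.70e-04). Of 10 skeletal muscle genes 6 were higher and 0 lower, with a median of 0.59, and the fast myosin gene Myh2 changed by 1.05 (edgeR adjusted p = 0.00911).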
